A study of Mus musculus with 6 samples.

Results

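The genes described here are members of the NF-kB system: the 5 subunit genes Nfkb1, Nfkb2, Rel, Rela and Relb, the inhibitor and feedback genes Nfkbia, Nfkbie and Tnfaip3, and the target genes Birc3 and Traf1. They were taken as all probe sets whose annotated symbol was one of these 10 names. This gave 14 of the 22690 probe sets on the array and 9 of 12393 annotated genes. Nfkb1 was not analysed here. The samples were mouse multiple myeloma cells, labelled as malignant plasma cells with bone marrow as their source, on 6 Affymetrix 1-colour arrays. Control cells spent 12 h in medium free of serum and of IGF-1 (3 arrays), and treated cells spent the same time in that medium with IGF-1 at 100 ng/ml (3 arrays). No label used here names a cell line, a mouse strain or an animal, or says whether replicates were separate cultures. The p-values therefore weigh group differences only against the spread among these samples, and that spread may be technical. The question was which of these transcripts differed in level once IGF-1, a growth and survival factor for myeloma cells, was present.

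NF-kB factors are dimers of Rel-homology proteins. In the canonical arm, IkB proteins such as the product of Nfkbia hold dimers containing RelA or c-Rel in the cytoplasm until the IKK kinase marks the inhibitor for degradation. In the non-canonical arm, the NIK kinase drives the processing of the Nfkb2 product, which then acts with RelB. Nfkbia, Nfkbie, Tnfaip3, Nfkb2, Relb, Birc3 and Traf1 are textbook targets of the factors they help to control, and plasma cells and myeloma cells are known to rely on NF-kB input from the marrow for survival. Much of the control of this system acts on proteins, which these arrays do not measure.

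The promoters of the 3 members with a probe set past the threshold of the test described below are shown first, because NF-kB dimers bind a short motif that many members carry. The sequences come from RefSeq on build GRCm38.p6 and cover the 250 bases before an annotated start, 5′ to 3′ on the gene's strand. Capitals mark exact matches, on either strand, to GGG followed by 5 bases of any kind and then CC, overlapping matches joined.
Nfkb2 (first of 3 annotated starts; chr19:46304487-46304736, plus strand): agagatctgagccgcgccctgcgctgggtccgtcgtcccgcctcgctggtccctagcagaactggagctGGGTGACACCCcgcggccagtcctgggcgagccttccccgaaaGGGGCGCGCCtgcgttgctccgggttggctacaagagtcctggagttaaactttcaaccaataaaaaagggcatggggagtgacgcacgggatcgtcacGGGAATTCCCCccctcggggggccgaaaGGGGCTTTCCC
Nfkbia (chr12:55492648-55492897, minus strand): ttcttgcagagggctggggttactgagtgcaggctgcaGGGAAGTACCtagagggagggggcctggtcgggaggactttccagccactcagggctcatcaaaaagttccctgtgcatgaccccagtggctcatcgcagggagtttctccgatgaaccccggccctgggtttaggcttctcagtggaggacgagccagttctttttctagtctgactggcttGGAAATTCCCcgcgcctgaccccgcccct
Birc3 (chr9:7873171-7873420, minus strand): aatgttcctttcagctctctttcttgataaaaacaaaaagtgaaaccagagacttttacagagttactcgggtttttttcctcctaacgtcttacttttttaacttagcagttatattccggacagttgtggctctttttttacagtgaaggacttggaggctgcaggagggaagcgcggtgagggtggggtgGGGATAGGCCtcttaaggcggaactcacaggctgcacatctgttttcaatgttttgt
Counted by first base, Nfkb2 had 7 matches, among them the palindrome GGGAATTCCC at bases -39 to -30 from the start. Nfkbia had 2 matches, with GGAAATTCCC at -29 to -20, and Birc3 had 1, GGGATAGGCC at -57 to -48. The table held 11 promoters of 8 members, and 10 promoters of 7 members had at least 1 match. Rel carried GGGAAATCCC at -92 to -83, while the Traf1 window had 0 matches, a statement about these letters in that window only. A match was common in general, in 45.8% of all 32851 promoters of this length, and 4.97% had 4 or more. These matches are a description of sequence and no measure of binding.

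The values are MAS5 signals on a linear scale, each array scaled by the authors to 1 common mean. The arrays had medians between 50.03 and 55.4, and their number limits the precision. Signals were compared as log2(signal + 15.63) with limma over the 11313 probe sets whose mean signal exceeded 53.61, and a gene was taken by its brightest tested probe set. Every adjusted p below is a Benjamini-Hochberg value of that limma test, and "rose" and "fell" mean an adjusted p under 0.05. Plasma cell markers were bright (10 of 10 genes with a probe set tested, mean signals 223.1 to 4635), and all 8 T cell markers with a probe set lay below the filter. Of the plasma cell markers 2 fell (Tnfrsf17 and Slamf7), and their summed signal was 14100 to 15310 in the control arrays and 13310 to 13840 in the IGF-1 arrays. Macrophage and monocyte markers gave signal as well: 10 of 13 were tested, 6 fell and 1 (Cd68) rose. Their summed signal was 6326 to 8638 in the control arrays and 5242 to 7244 in the IGF-1 arrays, none was at 0, and the dimmest was Marco with a mean of 7.09. Neutrophil markers were as bright as those of plasma cells (11 of 11 tested, mean signals 238.1 to 6872). Their summed signal ranged from 26330 to 31710 in controls and from 24090 to 27040 with IGF-1, and 3 of the 11 fell. In the B cell, erythroid and stromal lists 1, 3 and 3 genes were tested, of which only the erythroid Slc4a1 passed, and it rose. In such bulk samples, fewer cells of a type and less RNA per cell cannot be told apart.

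Among the members, Birc3 fell, 1 of 4 Nfkbia probe sets and 1 of 2 Nfkb2 probe sets rose, and Rela, Relb and Traf1 did not pass. Taken by the brightest probe set, 6 member genes were tested, of which 1 fell, 0 rose and 5 did not pass by limma, against 8.05% of all 6895 tested genes that fell, 7.05% that rose and 15.1% in either direction. At an unadjusted p under 0.05, 1 member was higher and 1 lower, where 993 of all 6895 tested genes were higher and 1108 lower. By probe set, 10 of 14 were tested. Of these 2 rose and 1 fell, where 6.82% of all tested probe sets rose and 8.28% fell. All 3 IGF-1 arrays lay above every control array for 3 of the 10 (16.1% of all tested probe sets) and below for 1 (18.7%). A single member is already a larger share of 6 genes than either background share, so these counts are a description only. The median difference of the 6 genes was 0.27 on the log2 scale, and -0.01 over all genes tested.

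**Figure D1:**
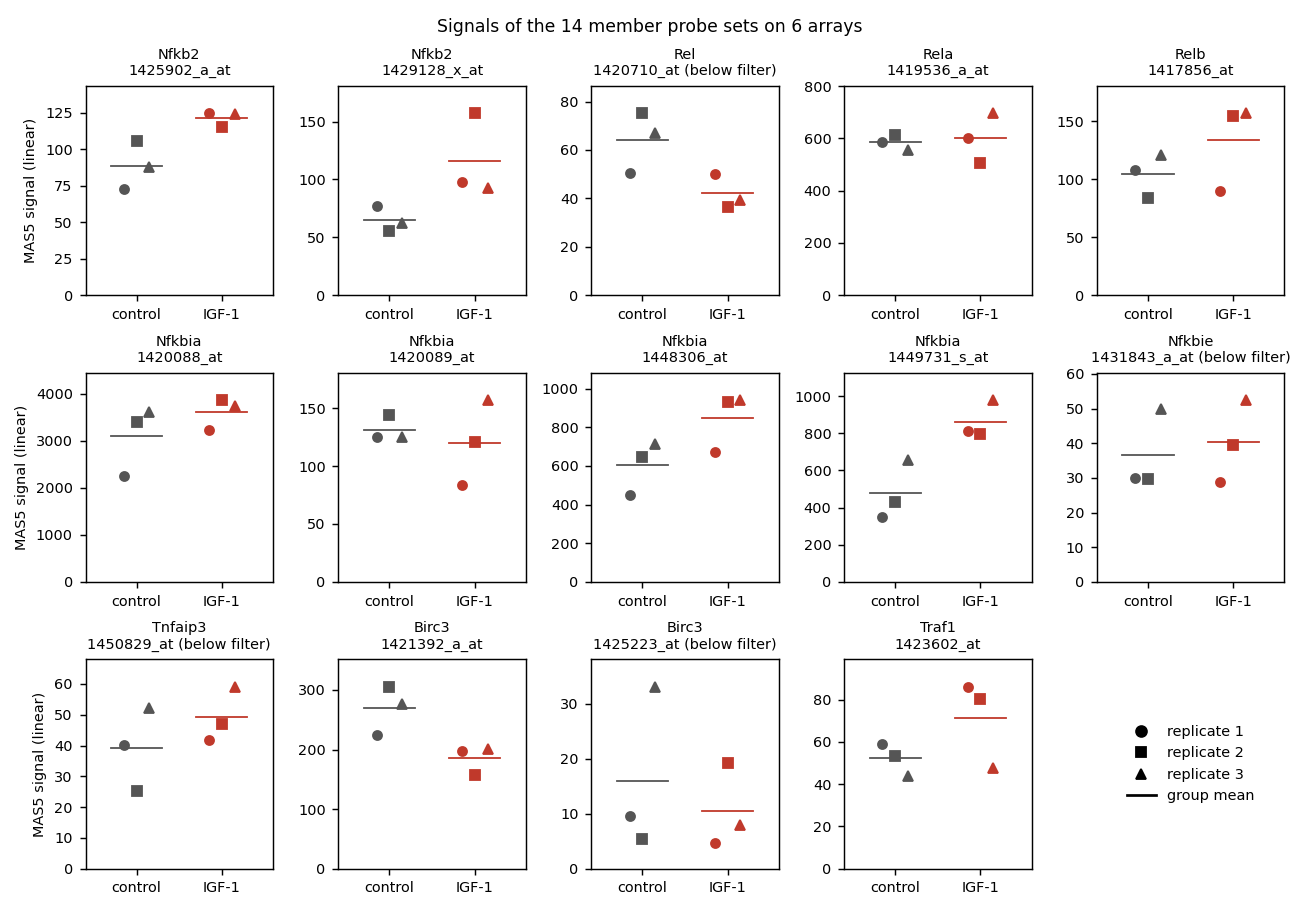
MAS5 signal (linear axis from 0) of each of the 14 member probe sets on the 3 control and 3 IGF-1 arrays, with group means as lines and replicate numbers as symbols. Groups are separate for both Nfkb2 probe sets, Nfkbia 1449731_s_at, Birc3 1421392_a_at and Rel, and overlap in the other panels.

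Nfkb2 encodes p100, an inhibitor that is cut to the DNA-binding p52 subunit, and was measured by 2 probe sets. The brighter, 1425902_a_at, gave signals of 72.6, 105.8 and 87.5 in control arrays 1 to 3 and 124.7, 115.0 and 124.2 in IGF-1 arrays 1 to 3. Every IGF-1 array was above every control array, with the closest pair being IGF-1 2 and control 2. The log2 difference of 0.41 ± 0.14 (SE; 95% interval 0.10 to 0.71) missed the threshold (adjusted p = 0.0777). The other probe set, 1429128_x_at, whose suffix marks possible cross-hybridization, read 77.2, 55.6 and 62.4 in controls and 97.7, 157.4 and 92.4 with IGF-1. Here IGF-1 2 stood above the other 5 arrays, and it had been the lowest IGF-1 array for the first probe set. This probe set rose by 0.68 ± 0.19, 1.602-fold (adjusted p = 0.0383). That call was lost without control 2 or 3 or with IGF-1 1 or 2 left out (adjusted p 0.0525 to 0.122), and without the filter (0.117). The difference was 0.46 without IGF-1 2. With the 2 probe sets averaged per gene, an alternative setting, the gene passed (0.54 ± 0.12, adjusted p = 0.0128).

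Relb, the partner of p52 in the non-canonical arm, gave 108.0, 83.8 and 120.6 in controls and 90.0, 154.4 and 157.1 with IGF-1. IGF-1 arrays 2 and 3 were above all controls, whereas IGF-1 1 lay among them. The difference was 0.30 ± 0.20 (95% interval -0.14 to 0.73, adjusted p = 0.358).

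Rela, which encodes p65, the main activating subunit of the canonical arm, read 587, 613 and 556 in controls and 603, 505 and 697 with IGF-1. The IGF-1 arrays spanned the control arrays on both sides. Its difference was 0.03 ± 0.12 (95% interval -0.24 to 0.29, adjusted p = 0.903). The sign turned without control 3 or IGF-1 3, to -0.01 and -0.08.

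Rel, which encodes c-Rel, the subunit typical of lymphoid cells, had a mean signal of 53.1, just under the filter of 53.61, and so took no part in the main test. Its signals were 50.6, 75.2 and 66.9 in controls and 50.2, 36.5 and 39.3 with IGF-1. All IGF-1 arrays were below all control arrays, but IGF-1 1 and control 1 differed by under 1 unit. In the fit without a filter, in which 2.2% of all probe sets fell and 1.98% rose, Rel had a difference of -0.47 ± 0.18 that did not pass (adjusted p = 0.213).

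Nfkbia encodes IkB-alpha, the fast feedback inhibitor of the canonical arm. It was measured by 4 probe sets, all tested, and only 1448306_at is tied to a sequence accession in the annotation used. That probe set read 451, 649 and 713 in controls and 670.0, 933 and 942 with IGF-1. The groups overlapped, since IGF-1 1 lay below control 3, and the difference of 0.49 ± 0.18 (95% interval 0.10 to 0.88) did not pass (adjusted p = 0.0899). It did pass without IGF-1 1, at 0.65 (adjusted p = 0.0457), and with hybridization-control scaling, at 0.77 (adjusted p = 0.00289).

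The brightest Nfkbia probe set, 1420088_at, read 2262, 3396 and 3619 in controls and 3237, 3871 and 3749 with IGF-1. Control 1 stood below all other arrays, and IGF-1 1 lay below controls 2 and 3. The difference was 0.25 ± 0.16 (95% interval -0.10 to 0.60, adjusted p = 0.327), and it was 0.04 without control 1. The probe set 1449731_s_at, whose suffix marks probes shared between transcripts, gave 350.1, 432 and 656 in controls and 813, 794 and 979 with IGF-1. All IGF-1 arrays exceeded all controls, and it rose by 0.87 ± 0.19, 1.82-fold (adjusted p = 0.0139). That call was lost without control 2 (adjusted p = 0.0575) and without the filter (0.0591). The dimmest, 1420089_at, read 124.8, 143.6 and 125.1 in controls and 83.3, 120.3 and 157.1 with IGF-1, a difference of -0.15 ± 0.18 (adjusted p = 0.638). IGF-1 1 was its lowest array and IGF-1 3 its highest, and its sign turned to 0.07 without IGF-1 1. The 4 probe sets thus gave differences from -0.15 to 0.87 for the same gene, with 1 past the threshold. Control 1 was the lowest control array in all 4, though for 1420089_at it was nearly level with control 3 (124.8 and 125.1). It also had the lowest summed macrophage and neutrophil signals of the 3 controls (6326 and 26330). The brightest genes weigh most in such sums, and Lyz2 alone gave 3561 of the 6326. With IGF-1 both sums had lower ranges than in controls (5242 to 7244 and 24090 to 27040). All Nfkbia differences but that of 1420089_at were above 0. The part of macrophages, monocytes and neutrophils in the Nfkbia values was not tested.

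**Figure D2:**
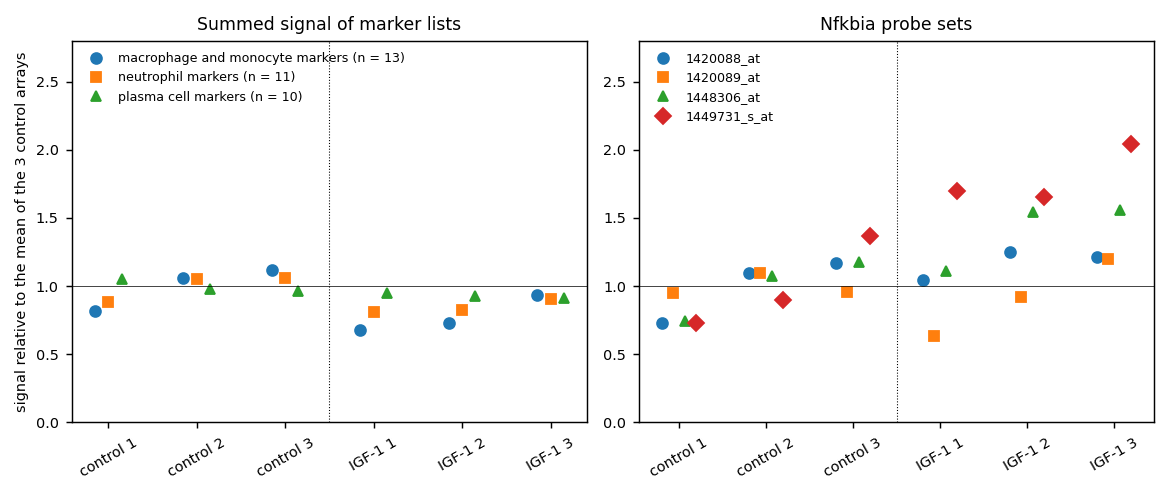
Signal of each array relative to the mean of the 3 control arrays (linear axis from 0), for the summed marker lists of macrophages and monocytes, neutrophils and plasma cells (left) and for the 4 Nfkbia probe sets (right). Control 1 is the lowest control for both myeloid lists and for each Nfkbia probe set, while only 1449731_s_at has every IGF-1 array above every control array.

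Nfkbie encodes IkB-epsilon, a slower inhibitor of RelA and c-Rel dimers. Its probe set was dim, at 30.1, 29.8 and 49.9 in controls and 28.8, 39.5 and 52.5 with IGF-1, below the filter. The groups overlapped almost fully, with a difference of 0.10 ± 0.23 in the fit without a filter (95% interval -0.43 to 0.63).

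Tnfaip3 encodes A20, a ubiquitin-editing enzyme that shuts off signalling upstream of IKK. It too lay below the filter, at 40.1, 25.1 and 52.2 in controls and 41.9, 47.0 and 59.1 with IGF-1. Control 3 exceeded 2 of the IGF-1 arrays, and the unfiltered difference was 0.27 ± 0.22 (95% interval -0.25 to 0.78, adjusted p = 0.596).

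Birc3 encodes cIAP2, a ubiquitin ligase of the TNF receptor complexes that blocks cell death, and is itself induced by NF-kB. Its brighter probe set, 1421392_a_at, gave 224.7, 305.4 and 276.7 in controls and 198.3, 157.2 and 200.9 with IGF-1. All IGF-1 arrays were below all control arrays, with IGF-1 2 the lowest and control 1 the closest control. It fell by 0.50 on the log2 scale (SE 0.14, 95% interval -0.80 to -0.19), 1.41-fold lower, with an adjusted p of 0.0359. The call held without control 1 (-0.61, adjusted p = 0.02) and was lost without any 1 of the other 5 arrays, with adjusted p from 0.0546 to 0.126. It was also lost without the filter (adjusted p = 0.0918) and with quantile normalization (adjusted p = 0.0535). A second probe set, 1425223_at, read 4.6 to 33.1 over the 6 arrays, far below the filter, and its groups overlapped. Macrophage and monocyte markers were lower with IGF-1 as well (median difference of the 10 tested -0.69, with the sums given above), and their part in the Birc3 value was not tested.

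Birc2, the neighbouring gene in RefSeq, encodes the related cIAP1 and belongs to the upstream list below. Its signals were 321, 283 and 283 in controls and 251, 267 and 270 with IGF-1, and all IGF-1 arrays were lower. The difference of -0.16 ± 0.10 did not pass (95% interval -0.38 to 0.06, adjusted p = 0.317). Whether the Birc2 and Birc3 differences differ from each other was not tested.

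Traf1 encodes an adaptor that binds cIAP proteins at TNF receptors and is strongly induced by NF-kB in lymphoid cells. Its probe set read 59.2, 53.5 and 44.1 in controls and 86.1, 80.3 and 47.7 with IGF-1. IGF-1 arrays 1 and 2 were above all controls and IGF-1 3 lay among them. With a mean signal of 61.8, close above the filter, the difference was 0.33 ± 0.20 (95% interval -0.10 to 0.77, adjusted p = 0.29).

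**Figure D3:**
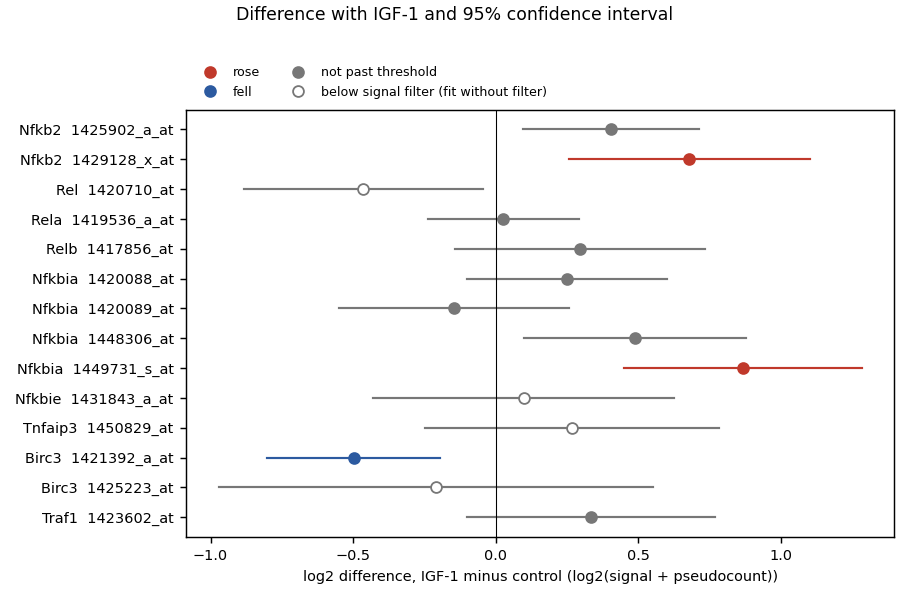
Log2 difference (IGF-1 minus control, on log2(signal + 15.63)) with its 95% confidence interval for the 14 member probe sets. Filled points are from the main fit and open points, for probe sets below the filter, from the fit without a filter. The intervals of Nfkbia 1449731_s_at and Nfkb2 1429128_x_at lie above 0 and that of Birc3 1421392_a_at below it. Intervals are unadjusted, so some of them exclude 0 without passing the threshold.

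All differences are relative to the overall signal of each array. Scaling to the hybridization controls instead, RNAs added at the hybridization step, moved the median of all tested genes from -0.01 to 0.26. The share of rises among called probe sets moved from 45.2% to 91.8%. The hybridization controls had a mean log2 signal of 7.833 to 8.104 in control arrays and 7.598 to 7.738 in IGF-1 arrays. Since these controls enter only at hybridization, neither scale measures RNA amounts per cell. With hybridization-control scaling 4 members rose (Nfkb2 0.66, Traf1 0.56, Relb 0.55 and Nfkbia 0.54) and 0 fell. Over all 6895 tested genes 1694 rose and 141 fell on that scale. Traf1 and Relb passed narrowly, at adjusted p of 0.044 and, rounded, 0.05. Birc3 stayed lower at -0.23 without passing, and Nfkbia 1420089_at turned to 0.11.

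Birc3 was the 1 member gene called by its brightest probe set, and the genes with the most similar profile over the 6 arrays were G0s2 (Pearson r = 0.9975), Plekhf2 (r = 0.9932) and Zfp869 (r = 0.9919). They were picked as the 3 highest among all tested genes, and the 6 arrays share the difference between the 2 groups, so the values are a description. G0s2, an inhibitor of the lipase ATGL, read 54.1, 87.5 and 80.8 in controls and 42.6, 26.4 and 43.0 with IGF-1, and it fell by 0.76. As for Birc3, control 2 was its highest array and IGF-1 2 its lowest.

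The rest of the pathway was read from 3 lists of textbook pathway genes. Of 42 ligands, receptors, adaptors and kinases upstream of NF-kB, 35 had a probe set and 26 were tested. By limma 3 fell, 0 rose and 23 did not pass, while at an unadjusted p under 0.05 there were 8 lower and 2 higher. Of the 23, Irak1 fell by another of its tested probe sets (-0.74, adjusted p = 0.0368), and none rose by another. Over all 6895 tested genes 8.05% fell and 7.05% rose, and at the unadjusted threshold 1108 were lower and 993 higher. The lists are small and none was tested as a set, so nothing particular to a list is read from its counts. Tab2, an adaptor that links TRAF6 to the kinase TAK1, gave 442, 451 and 400.1 in controls and 304, 290.1 and 288 with IGF-1. The groups were well apart, Tab2 fell by 0.53 (SE 0.09, adjusted p = 0.00594), and its second tested probe set fell too, by 0.39. Tnfrsf17, the receptor BCMA that carries survival signals in plasma cells, read 307, 327 and 342 in controls and 213, 230.2 and 229 with IGF-1. It fell by 0.51 (SE 0.10, adjusted p = 0.00801), and both its call and that of Tab2 held without any 1 array. With scaling by the hybridization controls both calls were lost, at -0.23 for Tnfrsf17 (adjusted p = 0.249) and -0.25 for Tab2 (adjusted p = 0.202). Ltb, the lymphotoxin-beta ligand, fell by 0.70 (SE 0.21, adjusted p = 0.0488), a call that was lost without any 1 array but control 1 (highest adjusted p 0.147), and with hybridization-control scaling (-0.45, adjusted p = 0.106).

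The kinases that sit directly above the members did not pass. Ikbkb, the catalytic IKK-beta, gave 192.7, 168.1 and 195.9 in controls and 156.4, 112.0 and 164.8 with IGF-1. All IGF-1 arrays were lower, at -0.34 ± 0.14 (adjusted p = 0.137), and its other 2 tested probe sets were at -0.24 and -0.35. Ikbkg, the regulatory subunit NEMO, was at -0.27 ± 0.13 (adjusted p = 0.198), with its other tested probe sets at -0.37 and 0.19. Map3k14, which encodes NIK, was at 0.03 ± 0.12 (95% interval -0.24 to 0.30) and Traf2, an adaptor that helps degrade NIK, at 0.17 ± 0.16. Chuk and Traf3 were not analysed here, and Tnf lay below the filter at 7.61 to 45.8 over the 6 arrays. The list median was -0.19, against 0.08 when scaled by hybridization controls.

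Of 18 further inhibitors, 12 were tested. By limma 4 fell, 0 rose and 8 did not pass, where 8.05% of all tested genes fell and 7.05% rose. At an unadjusted p under 0.05, 5 were lower and 3 higher, where 1108 of all 6895 tested genes were lower and 993 higher. Otulin, which removes linear ubiquitin chains that activate IKK, read 222.9, 271.1 and 227.3 in controls and 140.1, 163.8 and 125.9 with IGF-1. Each IGF-1 array was below each control, and Otulin fell by 0.69 (SE 0.13, adjusted p = 0.00633). Its call held without any 1 array, and with hybridization-control scaling at -0.42 (adjusted p = 0.0426). The other falls were those of Itch, a ubiquitin ligase (-0.52), Rnf11, a RING finger protein (-0.41), and Tax1bp1, a ubiquitin-binding adaptor (-0.32), with adjusted p of 0.0435, 0.0443 and 0.0364. Each of these 3 calls held in 1 of 6 fits with an array left out. All 3 were lost with hybridization-control scaling, at -0.25 for Itch (adjusted p = 0.264), -0.13 for Rnf11 (adjusted p = 0.532) and -0.04 for Tax1bp1 (adjusted p = 0.852). Rnf11 and Tax1bp1 each had 1 of 2 tested probe sets past the threshold. Nfkbib, which encodes IkB-beta, was higher without passing, at 124.1, 169.3 and 102.7 in controls and 230.5, 162.7 and 185.7 with IGF-1 (0.51 ± 0.17, adjusted p = 0.0762). Bcl3, a nuclear IkB protein, was at -0.11 ± 0.18 and Cyld was not analysed here. The list median was -0.25 (-0.002 when scaled by hybridization controls).

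Of 40 further target genes, 26 were tested, and 3 rose, 3 fell and 20 did not pass, where 7.05% of all tested genes rose and 8.05% fell. These counts use the brightest probe set. Among the 20, another tested probe set fell for Vcam1 (-0.76, adjusted p = 0.0335), Tnfaip2 (-0.76, adjusted p = 0.0394) and Irf4 (-0.71, adjusted p = 0.0246). None of the 20 rose by another probe set. Nfkbiz stands on this list and on that of the inhibitors, and did not pass (-0.32 ± 0.10, adjusted p = 0.0627). Icam1, an adhesion molecule and textbook NF-kB target, gave 209.0, 117.5 and 187.9 in controls and 232.5, 382.7 and 416.5 with IGF-1. All IGF-1 arrays were higher, and Icam1 rose by 0.94 ± 0.23, 1.92-fold (adjusted p = 0.023). Leaving out control 2, IGF-1 2 or IGF-1 3 ended that call, with an adjusted p of up to 0.0838. Gadd45b, a stress sensor that restrains JNK signalling, read 224.3, 249.2 and 393.8 in controls and 417.8, 542.2 and 567.1 with IGF-1. It rose by 0.81 ± 0.19 (adjusted p = 0.0186), but its other 2 tested probe sets were at 0.02 and -0.26. Psmb9, an immunoproteasome subunit, rose by 0.41 ± 0.10 (adjusted p = 0.0232).

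The 3 targets that fell were Plek (-0.91 ± 0.23), Ccl5 (-0.59 ± 0.17) and Mmp9 (-0.58 ± 0.14), with adjusted p of 0.0272, 0.0405 and 0.0214. Plek encodes pleckstrin of platelets and leukocytes, Ccl5 a chemokine and Mmp9 a gelatinase stored in neutrophils. Plek read 183.6, 361.9 and 407.6 in controls and 147.1, 142.5 and 170.7 with IGF-1. Control 1 was the low control again. The other 2 tested Plek probe sets, at -0.18 and -0.62, and the other Mmp9 probe set, at -0.31, did not pass. Each of the 3 calls ended when control 2, control 3, IGF-1 1 or IGF-1 2 was left out, with an adjusted p of up to 0.104 for Plek, 0.14 for Ccl5 and 0.0714 for Mmp9. Of the macrophage and monocyte markers 6 of 10 fell, and 9 were lower whether called or not. Of the neutrophil markers 3 of 11 fell, and 10 were lower. The part of myeloid cells in the Plek, Ccl5 and Mmp9 values was not tested. With hybridization-control scaling 2 macrophage and monocyte markers fell and the 3 neutrophil calls were lost, and the list medians moved from -0.69 to -0.43 and from -0.27 to 0.01. The calls of Gadd45b and Psmb9 were also lost without 1 of 4 arrays (highest adjusted p 0.0754 and 0.0857). The list median was -0.24, but 0.03 with scaling to the hybridization controls, on which the Icam1, Gadd45b, Psmb9 and Plek (-0.64, adjusted p = 0.0292) calls held. Those of Ccl5 (-0.33, adjusted p = 0.157) and Mmp9 (-0.30, adjusted p = 0.18) were lost on that scale. Without the filter all 6 calls of this list were lost.

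**Figure D4:**
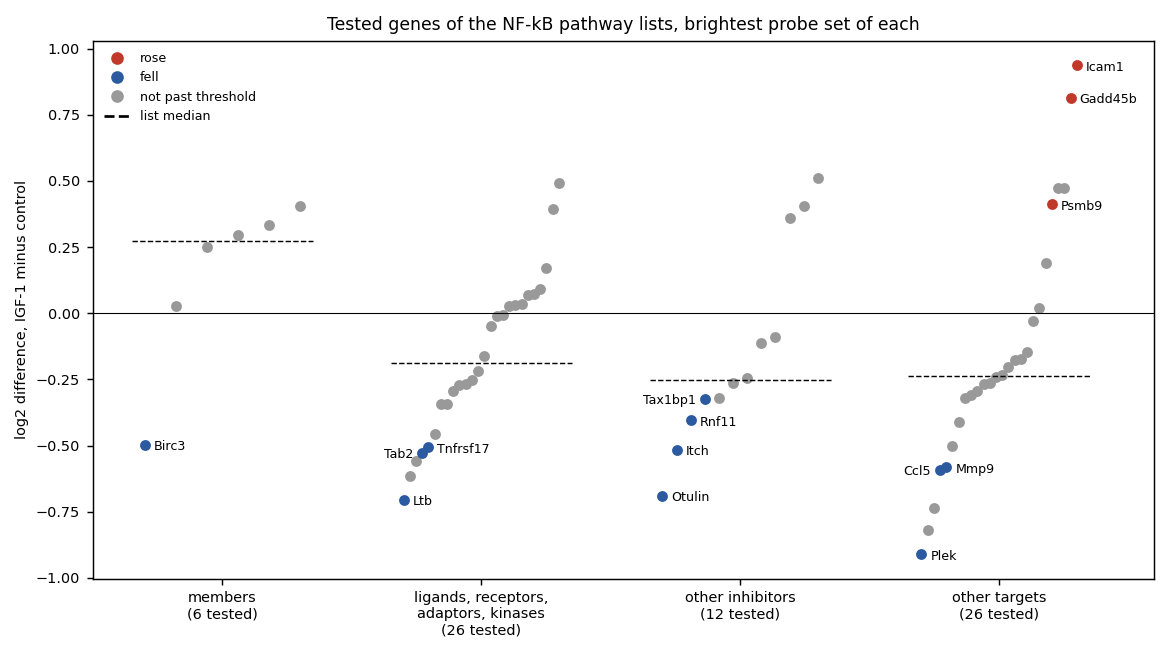
Log2 difference (IGF-1 minus control) of each tested gene of the member list and the 3 pathway lists, sorted within its list, with the list median as a dashed line. Genes past the threshold are coloured and named: Birc3 among the 6 members, 3 falls among 26 upstream genes, 4 falls among 12 other inhibitors, and 3 rises and 3 falls among 26 other targets.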

How the data were processed

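Mouse myeloma cells with and without IGF-1 were measured on 3 arrays each. The deposited values are linear MAS5 signal intensities per probe set, made by the authors in GCOS, per the submitters' processing notes. No source used here gives their versions. All arrays had a mean of 150.1 after trimming 2% at each end, and no further normalization was applied. Oligo-dT priming, per the labels' protocols, weights signals towards transcript 3′ ends.

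Of 22690 probe sets, 64 controls were left out, and those above the median mean signal were tested. Names came from the platform annotation (691 probe sets with several symbols and 1555 unlisted were not named). The fit used limma 3.58.1 in R 4.3.3 (lmFit, eBayes with trend, two-sided, pseudocount at the 25th percentile) and was tested on simulated data. Tables and plots used Python 3.11.15, pandas 2.3.3 and matplotlib 3.10.9. Named genes were all members, pathway genes past the threshold and a fixed set of kinases, adaptors and inhibitors. Members and lists were chosen with earlier results of these data known. Alternatives covered pseudocount, filter, normalization, eBayes settings, a replicate block, cross-hybridizing probe sets, probe sets per gene and each array left out.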

Additional observations from a re-analysis of the deposited data

How the results depend on the processing

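Without a filter on signal, 448 probe sets rose and 498 fell (772 and 937 in the main fit), 0 members fell, 1 other inhibitor fell, and 0 other targets rose or fell. With scaling to the hybridization controls 2740 probe sets rose and 246 fell. On that scale 4 members, 2 upstream genes, 3 other inhibitors and 5 other targets rose, and 0, 0, 1 and 1 fell. Over all 6895 tested genes 1694 rose and 141 fell there. Under quantile normalization 0 members and 2 other inhibitors fell and 1 upstream gene rose. Also 1 upstream gene rose with a filter at the 70th percentile, without _x_at and _s_at probe sets and with probe sets averaged per gene. Averaging also gave 1 member that rose and 1 other target that fell, and without an intensity trend 1 other inhibitor fell. The causes were not tested.

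With the replicate number as a block, 1 upstream gene rose and 5 fell, and 5 other targets fell. The member counts stayed at 0 and 1, and Nfkbia 1448306_at passed (adjusted p = 0.0112). Deviations of same-numbered arrays correlated at 0.12, -0.03 and 0.13, so the numbers were not taken as pairs, and control 2 correlated best with IGF-1 3.

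With 1 array left out, 406 to 659 probe sets rose and 491 to 792 fell. Members gave 0 rises and 0 to 1 falls, upstream genes 0 to 1 and 2 to 4, other inhibitors 0 to 1 and 1 to 2, and other targets 0 to 4 and 0 to 6. Rela ranged from -0.08 to 0.14 and turned sign without control 3 (-0.009) or IGF-1 3 (-0.082). Nfkbia 1420089_at ranged from -0.34 to 0.07 (0.065 without IGF-1 1) and was 0.112 with scaling to the hybridization controls. The other 8 tested member probe sets kept their direction in all alternatives run. Signal close to the filter limits Rel, Traf1, Nfkbie and Tnfaip3.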
